A study of Oscheius tipulae with 48 samples.

Results

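The genes described here are 150 of the 14558 genes measured in the nematode Oscheius tipulae. Their level in post-dauer mature adults exceeded that in every other compared set of libraries by the largest margin. RNA-seq values were RPKM, reads scaled by gene length and library size. Values were averaged as log2(RPKM + 1) over 9 sets of libraries: embryos of 2 to 8 cells, embryos of 8 to 64 cells, embryos of 64 to 200 cells, L1 replicates 2 and 3, L2 to L4 larvae, young and mature adults, adult males, dauer larvae and post-dauer mature adults. In all, 1176 genes were highest in post-dauer mature adults, and 843 of these had 10 RPKM or more in both libraries of that stage. The 150 of largest margin over the next highest set are the members. Post-dauer L3 larvae, L4 larvae and young adults took no part in the choice. Since the files do not pair IDs with gene names, each gene goes by its ID and its function is not known here.

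The series holds 48 libraries of strain CEW1 in 23 groups, 20 libraries from staged embryos and 28 from larvae, dauers, adults and mixed cultures. The worms recovered from dauer were sampled as post-dauer L3, post-dauer L4, post-dauer young adults and post-dauer mature adults, with 2 libraries for each. Their dauers were taken from liquid culture. Dauer larvae themselves gave 2 libraries. Directly grown worms started from L1 larvae arrested without food and plated on a bacterial lawn, and gave 5 groups of 2 libraries each, from L2 to mature adults. L1 larvae gave 3 libraries. Adult males (2 libraries) carried him-1(sy527) and were picked by hand. Mixed worms (2 libraries) and mixed embryos (1 library) entered no comparison. All worm libraries were made from whole worms, so fewer cells of a type and less RNA per cell cannot be told apart. The labels do not state the temperature and food of the post-dauer cultures, and culture history differs between post-dauer and direct groups in every comparison of the pair. Replicates are titled as biological, with no word on separate cultures. P-values here therefore set differences only against the spread among these libraries, shared over all groups of the fit. Some of that spread may be technical.

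Dauer is an arrested, non-feeding and stress-resistant larval form that free-living nematodes enter when food is short or worms are crowded. On return to food the larva leaves dauer, resumes feeding and grows through the last larval stage to a fertile adult. In Caenorhabditis elegans, adults that passed through dauer are known to differ in gene expression and in life history traits from adults that never did.

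Several of the libraries that bear on the members stood apart from others of their group. Post-dauer L4 replicate 1 correlated across all genes at r = 0.928 and 0.917 with the post-dauer mature adult libraries and at 0.871 with post-dauer L4 replicate 2. Without the members these values were 0.930, 0.918 and 0.871. The post-dauer young adult libraries correlated with each other at only 0.596. The 3124 genes with a median under 0.5 RPKM over all libraries, called silent here, lay at a median of 5.32 RPKM for post-dauer young adult replicate 1, 3.59 and 1.55 RPKM for the dauer libraries and 2.44 RPKM for post-dauer L3 replicate 1. In the post-dauer mature adult libraries that median was 0.49 and 0.25 RPKM. Such correlations across genes only describe libraries. Closeness to another group was not particular to post-dauer L4. Young adult replicate 2 correlated at 0.9825 with mature adult replicate 2 and at 0.827 with young adult replicate 1. Post-dauer L4 replicate 2 was closest to post-dauer young adult replicate 2, at 0.935. Stages are named as the labels give them. For post-dauer L4 these values and those of larval genes given further on call for care with the label, which was not tested. Whether post-dauer L4 and L4 worms were of the same stage cannot be told, and each result at L4 compares the libraries so labelled.

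The members were expressed at moderate to high levels in post-dauer mature adults, and their values there are a description, since they chose the genes. Their median was 71.9 and 49.6 RPKM in the post-dauer mature adult libraries, against 3.88 and 7.22 RPKM in mature adults that had not passed through dauer. Over all genes the median was 6.65 to 7.03 RPKM in the same post-dauer mature adult libraries and 2.36 to 5.65 RPKM in mature adults. The members held 5.9% and 5.0% of the summed RPKM in post-dauer mature adults and 0.810% and 0.954% in mature adults. Relative to post-dauer mature adults, the median member was lower by 2.96 in mature adults, by 2.10 in young adults, by 2.33 in L4 larvae and by 1.56 in dauer, all on the log2(RPKM + 1) scale. In 147 of the 150 both post-dauer mature adult libraries lay above both mature adult libraries, as they did for 36% of all genes tested; the rule used this contrast.

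Directly grown stages carried the members at low to moderate levels. The library medians were 0.095 to 1.09 RPKM in staged embryos and 0.925 RPKM in mixed embryos. They were 3.04, 27.0 and 8.12 RPKM in the L1 libraries, with L1 replicate 2 well above the others. In L2 larvae they were 9.28 and 11.7 RPKM, in L3 larvae 14.6 and 12.8 RPKM, in L4 larvae 8.98 and 9.10 RPKM and in young adults 13.8 and 8.40 RPKM. Adult males had medians of 9.42 and 11.3 RPKM and mixed worms, which the choice of members did not use, 6.12 and 6.26 RPKM. Dauer larvae were the highest of the stages outside post-dauer adults and post-dauer L4, at 16.0 and 17.1 RPKM, apart from L1 replicate 2.

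**Figure D1:**
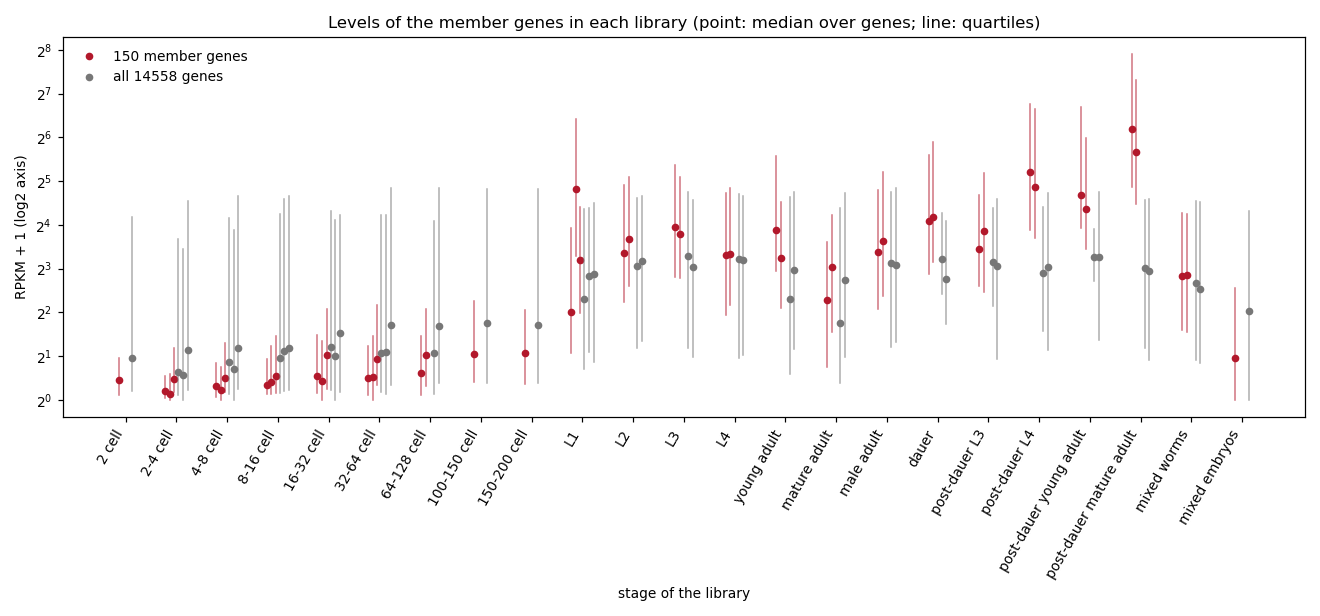
Level of the 150 members (red) and of all 14558 genes (grey) in each library by stage, as RPKM + 1 on a log2 axis; points are medians over genes and lines span the quartiles. The members' medians are 71.9 and 49.6 RPKM in post-dauer mature adults and 35.9 and 28.3 RPKM in post-dauer L4, while the medians of all genes are 6.65 to 7.03 RPKM and 6.46 to 7.22 RPKM there.

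The margin over the next highest set ranged from 3.43 down to 0.82, with a median of 1.15, on the log2(RPKM + 1) scale. It was at least 3 for 3 members, at least 2 for 19 and at least 1 for 104. At the boundary, Oti_g09594 and Oti_g04554, the last members, both had a margin of 0.82. The first genes left out, Oti_g08195 with 0.82 and Oti_g02933 with 0.81, were close to them. For 100 members the lower post-dauer mature adult library was above every single library of the other 8 sets, as it was for 1.41% of all genes tested; the members were chosen for this margin. The post-dauer mature adult libraries were not equally high: 113 of the 150 members were higher in replicate 1, with a median difference of 0.44, against 0.02 over all genes. Left with replicate 2 alone, the same rule kept 94 of the members, and with replicate 1 alone 85. All 150 passed the filter on low values used for the tests below, also when the post-dauer mature adult libraries were not counted.

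Oti_g08406 had the largest margin. It had 150.7 and 50.03 RPKM in post-dauer mature adults, against 1.30 and 0.37 RPKM in mature adults. Dauer, its next highest set, had 4.77 and 10.6 RPKM. After dauer it was high at every stage, at 40.5 and 59.7 RPKM for post-dauer L3, 462 and 57.2 RPKM for post-dauer L4 and 107 and 76.4 RPKM for post-dauer young adults. It was listed at 0 in both mixed worm libraries.

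Oti_g02519, second by margin, had 54.1 and 14.3 RPKM in post-dauer mature adults, against 0.25 and 0 RPKM in mature adults. Its post-dauer L3 libraries had only 1.40 and 2.12 RPKM, close to the 1.65 and 2.15 RPKM of dauer. In post-dauer L4 the libraries differed widely, at 48.02 and 3.38 RPKM.

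By the set in which they were next highest, the largest class of members was dauer. It held 76 members, while 30 were next highest in L1, 26 in L2 to L4, 10 in males, 6 in young and mature adults and 2 in embryos of 64 to 200 cells. The classes were not counted over other genes. Dauer was not pooled with other stages, as L2 to L4 were, and its silent genes lay at 3.59 and 1.55 RPKM. Whether this has a part in the class sizes was not tested. The 76 members next highest in dauer had library medians of 21.8 and 23.1 RPKM for dauer, 6.34 and 7.04 RPKM for post-dauer L3, 27.3 and 31.7 RPKM for post-dauer L4, 36.8 and 15.1 RPKM for post-dauer young adults and 81.7 and 55.7 RPKM for post-dauer mature adults. Their levels in dauer and in post-dauer mature adults were used to place them in this class, so only the values of the post-dauer stages between, the lowest of which were those of post-dauer L3, were free of the choice. In direct L4 larvae the same members had 4.08 and 4.81 RPKM and in mature adults 1.26 and 3.03 RPKM.

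The 30 members next highest in L1 and the 26 next highest in L2 to L4 were already present in post-dauer L3. The 30 had medians of 17.2 and 21.8 RPKM in post-dauer L3, against 25.8 and 20.6 RPKM in L3. In post-dauer L4 they had 49.8 and 28.3 RPKM, against 17.5 and 19.0 RPKM in L4. The 26 had 20.0 and 18.9 RPKM in post-dauer L3, against 26.4 and 18.1 RPKM in L3. Their post-dauer L4 libraries, at 50.5 and 18.0 RPKM, spanned the 14.1 and 18.3 RPKM of L4, so only post-dauer L4 replicate 1 stood above both.

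**Figure D2:**
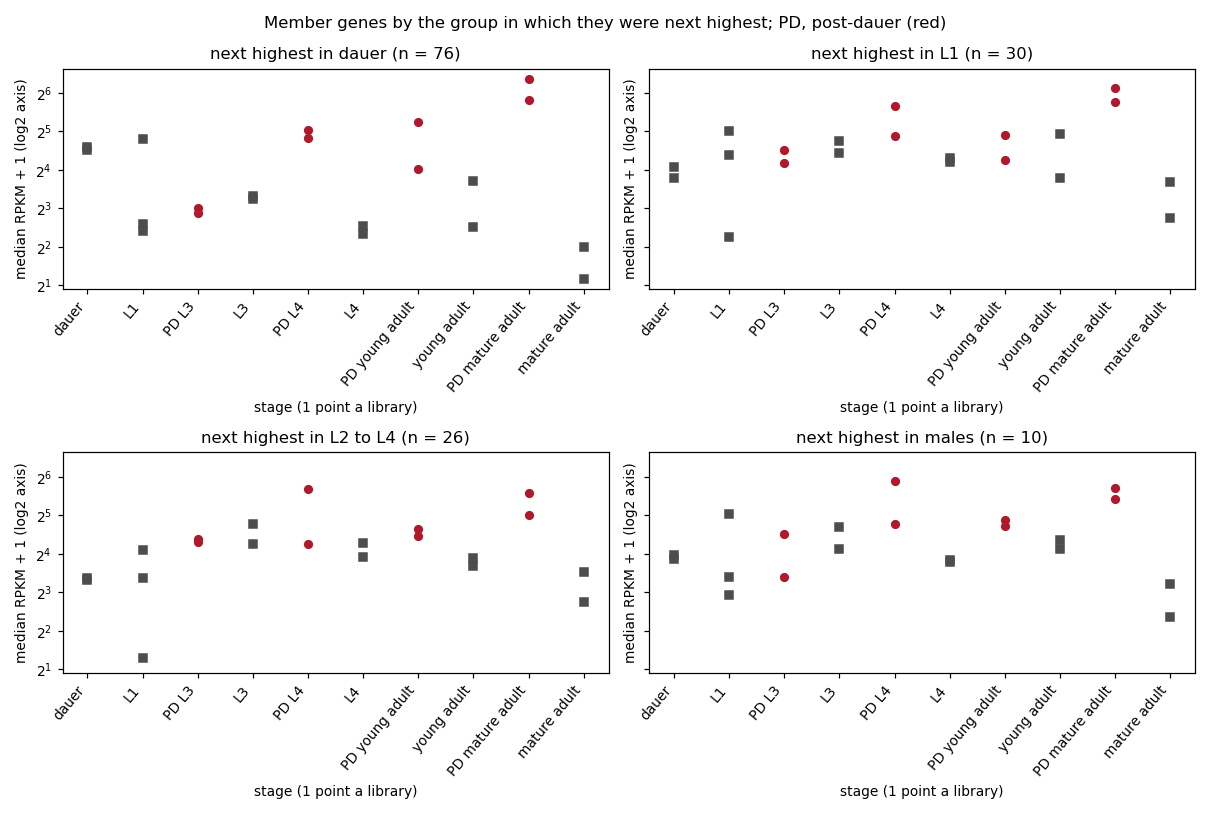
Median level of the members in each library, in 4 panels by the set in which they were next highest; the vertical axis is median RPKM + 1 on a log2 axis, with post-dauer libraries as red circles and other libraries as grey squares. The 76 members next highest in dauer sit at 6.34 and 7.04 RPKM in post-dauer L3 and at 27.3 and 31.7 RPKM in post-dauer L4.

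In each of these classes the member of largest margin shows the pattern in single libraries. Among those next highest in L1, Oti_g01875 had 215 and 197 RPKM in post-dauer mature adults, against 24.1 and 18.0 RPKM in mature adults. Its post-dauer L4 libraries had 524 and 108 RPKM, against 19.0 and 17.9 RPKM in L4, and the groups did not overlap. Among those next highest in L2 to L4, Oti_g07053 was low in most libraries, with 12.1 and 18.3 RPKM in post-dauer mature adults, against 0.29 and 0.83 RPKM in mature adults. Among those next highest in males, Oti_g10909 had 813 and 972 RPKM in post-dauer mature adults, against 3.69 and 9.18 RPKM in mature adults. Males had 86.7 and 317 RPKM of Oti_g10909. The L2 libraries, pooled with L3 and L4 in the choice, had 207 and 176 RPKM, so males were not clearly above L2 alone. The L1 libraries had 19.2, 577 and 29.0 RPKM, so a single L1 library approached the post-dauer mature adults.

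With the other post-dauer stages added, 131 of the 150 members were highest in post-dauer mature adults among 12 sets. Another 17 were highest in post-dauer L4, 2 in post-dauer young adults and 0 in post-dauer L3. The choice by margin in post-dauer mature adults largely sets the 131. No such count was made over other genes. The mean level in post-dauer L4 was above the next highest set of the rule for 104 members, and both of its libraries were above it for 79, where 7.08% and 3.26% of all genes tested were above all 8 sets in these ways. In post-dauer young adults these counts were 84 and 44, against 12.3% and 3.43% of all genes, and in post-dauer L3 they were 26 and 17, against 8.4% and 3.01%. Measured in the other direction, both libraries lay below both post-dauer mature adult libraries for 139 members in post-dauer L3, 61 in post-dauer L4 and 88 in post-dauer young adults, where 20.3%, 12.7% and 11.5% of all genes tested did so. Since the members were chosen high in post-dauer mature adults, these counts are partly set by the choice.

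Levels of the members along the post-dauer stages were therefore lower at L3 than from L4 on. The library medians averaged 11.7 ± 2.43 RPKM for post-dauer L3, 32.1 ± 5.34 RPKM for post-dauer L4, 22.2 ± 3.49 RPKM for post-dauer young adults and 60.7 ± 15.7 RPKM for post-dauer mature adults (SD, n = 2 each). Values in this paragraph do not have the level of silent genes subtracted. In replicate 1 that level was 2.44 RPKM for post-dauer L3, 1.365 RPKM for post-dauer L4 and 5.32 RPKM for post-dauer young adults. At 10 RPKM or more in both libraries there were 65 members in post-dauer L3, 106 in post-dauer L4 and 103 in post-dauer young adults. These were 43.3%, 70.7% and 68.7% of the members. Over all genes the shares at that level were 37.5%, 36.6% and 28.7% in these stages. The members, however, had to reach that level in both post-dauer mature adult libraries. Among the 5493 other genes that did so, the shares were 82.4%, 87.2% and 65.4%. Members at 10 RPKM or more in both libraries numbered 51 in mixed worms and 86 in dauer.

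The first tested comparison set post-dauer L4 against post-dauer L3, groups that took no part in the choice of the members. The limma fit behind its p-values also held libraries that did. Members were higher in post-dauer L4, and their median log2 change was 1.47, against -0.09 over all 14446 genes tested, and 141 of 150 had a change above 0. In 104 members the post-dauer L4 libraries both lay above both post-dauer L3 libraries and in 2 they lay below, where 16.7% and 18.4% of all genes did so. Taken alone, post-dauer L4 replicate 1 was above both post-dauer L3 libraries for 128 members and replicate 2 for 117, where 27.2% and 32.9% of all genes were. No member passed limma's test at a Benjamini-Hochberg adjusted p under 0.05 with a log2 change of at least 1; among all genes 0% passed higher and 0.0138% lower. At an unadjusted limma p under 0.05 there were 50 members higher and 0 lower, where 2.99% and 4.95% of all genes were. With post-dauer mature adults left out of the fit, these counts were again 50 and 0, and no member was called. Without post-dauer L3 replicate 2, 1 member passed higher (0.667%, against 0.0692% of all genes). Without the 6 libraries that stand apart, 1 member passed higher, against 0.3% of all genes, and the median change was 1.15.

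Of the members, Oti_g02197 and Oti_g03564 had the smallest p in this comparison. Oti_g02197 had 615 and 273 RPKM in post-dauer L4, against 23.9 and 35.3 RPKM in post-dauer L3. Its log2 change was 3.77 ± 0.81 (SE), with a limma Benjamini-Hochberg adjusted p of 0.128. Oti_g03564 had 249 and 308 RPKM in post-dauer L4, against 12.9 and 52.5 RPKM in post-dauer L3. Its log2 change was 3.35 ± 0.79 (SE), with a limma adjusted p of 0.128. In neither gene did the stages overlap. Without post-dauer L3 replicate 2 the change of Oti_g03564 was 4.32 with a limma adjusted p of 0.0315.

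Genes of another stage also differed between these libraries. The 150 genes highest in L2 to L4 larvae, chosen by the same kind of rule, had medians of 2.395 and 5.725 RPKM in post-dauer L4, against 75.3 and 38.7 RPKM in post-dauer L3, and 68.5 and 65.9 RPKM in L4. The direct L4 libraries took part in choosing this list, so their higher level is partly set by the choice. Post-dauer L3 and post-dauer L4 took no part in it. Both post-dauer L4 libraries had a lower median than both post-dauer L3 libraries. Whether this has a part in the levels of the members was not tested.

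Post-dauer young adults had the members at about the level of post-dauer L4 or below it, depending on the library. The median log2 change was -0.33, against 0.21 over all genes, and 49 of 150 had a change above 0. The post-dauer young adult libraries both lay above both post-dauer L4 libraries for 3 members and below them for 29, where 12.5% and 6.08% of all genes did so. Taken alone, replicate 2 was above both post-dauer L4 libraries for 5 members and below them for 84, against 28.4% and 24.1% of all genes. Replicate 1, which has the highest level of silent genes, was above for 53 and below for 52, against 51% and 31.8%. Without replicate 1 the median change was -0.60, against 0.01 over all genes. No member was called by limma, and among all genes 0% were called in either direction. Limma's unadjusted p was under 0.05 for 0 members higher and 4 lower, against 2.81% and 1.3% of all genes. Without post-dauer young adult replicate 2, 5 members were called, 1 higher and 4 lower. These were 0.667% and 2.67% of the members, below the 7.82% and 6.28% of all genes called in that fit, and the median change was -0.02, against 0.38 over all genes.

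Oti_g12465 had 73.4 and 214 RPKM in post-dauer young adults, against 341 and 633 RPKM in post-dauer L4. Its log2 change of -1.88 ± 0.71 (SE) had a limma Benjamini-Hochberg adjusted p of 0.826, and without post-dauer young adult replicate 2 it was -2.64 with an adjusted p of 0.0383. Oti_g03070 had 18.1 and 74.5 RPKM in post-dauer young adults, against 140 and 168 RPKM in post-dauer L4, a log2 change of -2.02 ± 0.87 (SE) with a limma adjusted p of 0.826. In both genes the post-dauer young adult libraries lay below the post-dauer L4 libraries.

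Set against post-dauer L3, post-dauer young adults had most members higher. The median log2 change was 1.03, against 0.13 over all genes, and 136 of 150 had a change above 0. In 80 members the post-dauer young adult libraries lay above both post-dauer L3 libraries and in 1 below, where 13.2% and 9% of all genes did so. No member was called by limma, nor any other gene (0%). At an unadjusted limma p under 0.05, 36 members were higher and 0 lower, against 3.32% and 2.26% of all genes. Without post-dauer young adult replicate 2 limma called 27 members, 26 of them higher, or 17.3% of the members, against 3.86% of all genes called higher and 5.09% lower. The library left in the group was then replicate 1, which has the highest level of silent genes of all.

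Oti_g02197, described above, had 932 and 136 RPKM in post-dauer young adults, against 23.9 and 35.3 RPKM in post-dauer L3. Its log2 change was 3.57 ± 0.81 (SE), with a limma adjusted p of 0.844. Oti_g07062 had 626 and 107 RPKM in post-dauer young adults, against 7.58 and 16.9 RPKM in post-dauer L3. Its log2 change was 4.39 ± 1.12 (SE) with a limma adjusted p of 0.844. In dauer Oti_g07062 had 250 and 172 RPKM, so its post-dauer L3 libraries were the low point between dauer and the 720 and 946 RPKM of post-dauer mature adults. Without post-dauer young adult replicate 2 the changes were 4.96 and 5.66, with limma adjusted p of 0.00234 for Oti_g02197 and 0.0172 for Oti_g07062.

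**Figure D3:**
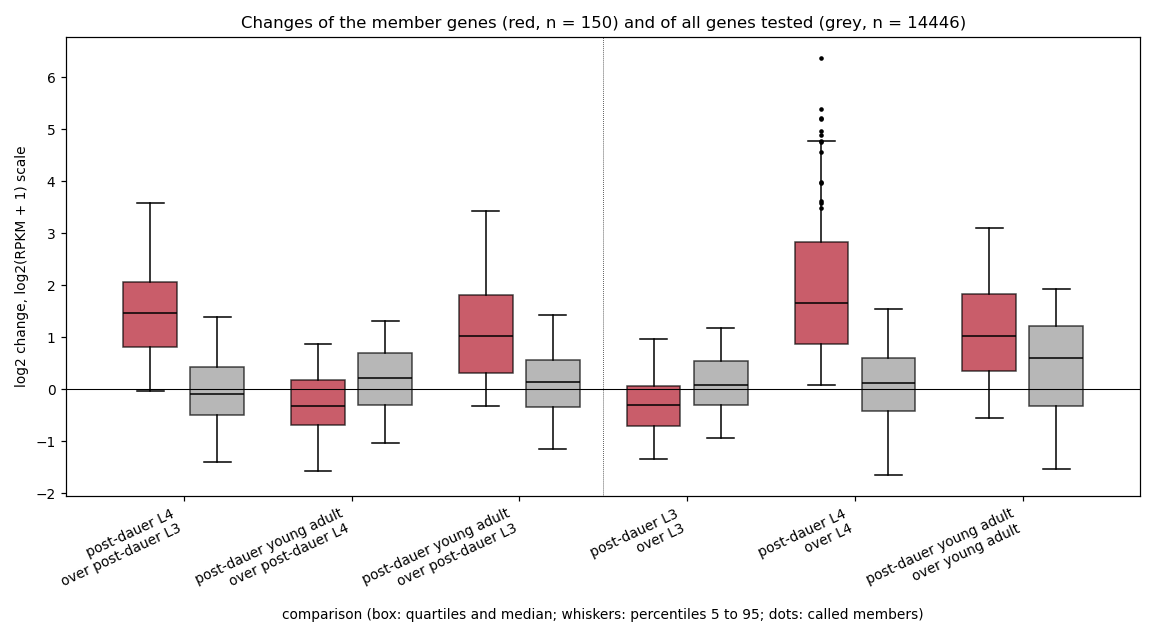
Log2 changes on the log2(RPKM + 1) scale of the 150 members (red, left of each pair) and of all 14446 genes tested (grey, right) in 6 comparisons; boxes are quartiles with the median, whiskers reach percentiles 5 and 95, and dots are members called by limma. The members' medians are 1.47, -0.33 and 1.03 between post-dauer stages and -0.30, 1.66 and 1.02 against the direct stages.

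Members were next compared between post-dauer and direct worms labelled with the same stage. The direct groups took part in the choice of the members, which were chosen low in them, so a higher post-dauer level is partly set by that choice.

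At L3 the members were not higher after dauer. Their median log2 change in post-dauer L3 against L3 was -0.30, against 0.07 over all genes, and 43 of 150 had a change above 0. The post-dauer L3 libraries both lay above both L3 libraries for 14 members and below them for 47, where 15.1% and 16.3% of all genes did so. No member was called by limma, nor any other gene (0%), and at an unadjusted limma p under 0.05 there were 3 higher and 2 lower, against 0.921% and 1.01% of all genes.

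Oti_g08406 and Oti_g11432 had the smallest p among the members. Oti_g08406 was higher in post-dauer L3, with 40.5 and 59.7 RPKM, against 2.32 and 10.3 RPKM in L3. Its log2 change was 3.03 ± 0.95 (SE), with a limma Benjamini-Hochberg adjusted p of 1. Oti_g11432 had 15.8 and 14.1 RPKM in post-dauer L3, against 1.39 and 1.69 RPKM in L3. The log2 change was 2.65 ± 0.81 (SE), with a limma adjusted p of 1. The groups did not overlap in either gene, although neither passed the test.

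At L4 most members were higher after dauer. The median log2 change in post-dauer L4 against L4 was 1.66, against 0.12 over all genes, and 144 of 150 had a change above 0. Limma called 14 members higher and 0 lower, where 0.228% of all genes were called higher and 0.651% lower. These 14 were 9.33% of the members and 42.4% of the 33 genes called higher. At an unadjusted limma p under 0.05, 71 members were higher and 0 lower, against 3.93% and 6.43% of all genes. In 122 members both post-dauer L4 libraries lay above both L4 libraries and in 3 below, where 28.6% and 25.4% of all genes did so. The low level of the L2 to L4 list in the libraries labelled post-dauer L4, given above, stands beside these counts.

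Of the 14 called members, 11 were next highest in dauer, 2 in L1 and 1 in young and mature adults, and their log2 changes were between 3.49 and 6.37. Their median was 1.21 and 1.04 RPKM in the L4 libraries. Oti_g08406 had 462 and 57.2 RPKM in post-dauer L4, against 0.88 and 1.11 RPKM in L4. It rose by 6.37 ± 0.95 (SE) on the log2(RPKM + 1) scale, with a limma Benjamini-Hochberg adjusted p of 0.00359. Oti_g08405 had 143 and 11.5 RPKM in post-dauer L4, against 0.03 and 0 RPKM in L4, and rose by 5.38 ± 1.10 (SE) with a limma adjusted p of 0.0303. Both were thus nearly silent in direct L4 larvae and far higher in post-dauer L4 replicate 1 than in replicate 2.

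The calls at L4 depended on single libraries. Without post-dauer L4 replicate 1 the count of members called was 1 (0.667%, against 0.0277% of all genes called higher), without post-dauer L4 replicate 2 it was 9 (6%, against 0.118%), and without either L4 library it was 0 (0% of all genes higher), while the median change stayed between 1.54 and 1.71. Without post-dauer L4 replicate 1 the change of Oti_g08406 was 4.87 with a limma adjusted p of 0.0871, and that of Oti_g08405 was 3.62 with a limma adjusted p of 0.276. Without L4 replicate 1 or 2 the adjusted p was 0.0886 or 0.0744 for Oti_g08406 and 0.288 or 0.313 for Oti_g08405.

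At the young adult stage the members were again mostly higher after dauer. The median log2 change in post-dauer young adults against young adults was 1.02, against 0.59 over all genes, whose median was itself shifted in this comparison. After quantile normalization, which brought the median of all genes to -0.002, that of the members was 1.17. Without young adult replicate 2 the members' median was 0.53, below the 0.73 of all genes. The groups did not overlap for 66 members higher and 1 lower, where 27.7% and 15.4% of all genes did not. No member was called by limma, and 0% of all genes were called higher and 0.0346% lower. Limma's unadjusted p was under 0.05 for 44 members higher and 0 lower, against 15.2% and 9.62% of all genes. Leaving out post-dauer young adult replicate 2, limma called 44 members, 42 of them higher. These 42 were 28% of the members, near the 24.6% of all genes called higher in that fit, where 13.3% were called lower. It called 1 member higher (0.667%) when young adult replicate 2 was left out, against 1.27% of all genes.

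Oti_g02519 had 26.0 and 12.2 RPKM in post-dauer young adults, against 1.14 and 0.34 RPKM in young adults, a log2 change of 3.48 ± 0.80 (SE) with a limma Benjamini-Hochberg adjusted p of 0.179. Oti_g13180 had 17.4 and 28.7 RPKM in post-dauer young adults, against 5.82 and 2.03 RPKM in young adults. Its log2 change was 2.36 ± 0.55 (SE), with a limma adjusted p of 0.179. Post-dauer young adult libraries were above the young adult libraries in both genes. Without post-dauer young adult replicate 2, where so many genes were called, the adjusted p was 0.00652 for Oti_g02519 and 0.0279 for Oti_g13180.

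Whether the post-dauer effect differs between stages was tested directly. The effect at L4 minus that at L3 had a median of 1.96 over the members, against -0.05 over all genes, and was above 0 for 142 of 150. No member and 0% of all genes were called by limma. At an unadjusted limma p under 0.05, 52 members had a larger effect at L4 and 0 a smaller one, against 1.83% and 2.98% of all genes. The effect at the young adult stage minus that at L4 had a median of -0.68 over the members, against 0.44 over all genes. Limma called 0 members there, where 1.25% of all genes were called higher and 0.00692% lower. Its unadjusted p was under 0.05 for 0 members higher and 6 lower, against 9.89% and 5.56% of all genes. Both tests were chosen after the other comparisons had been seen.

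**Figure D4:**
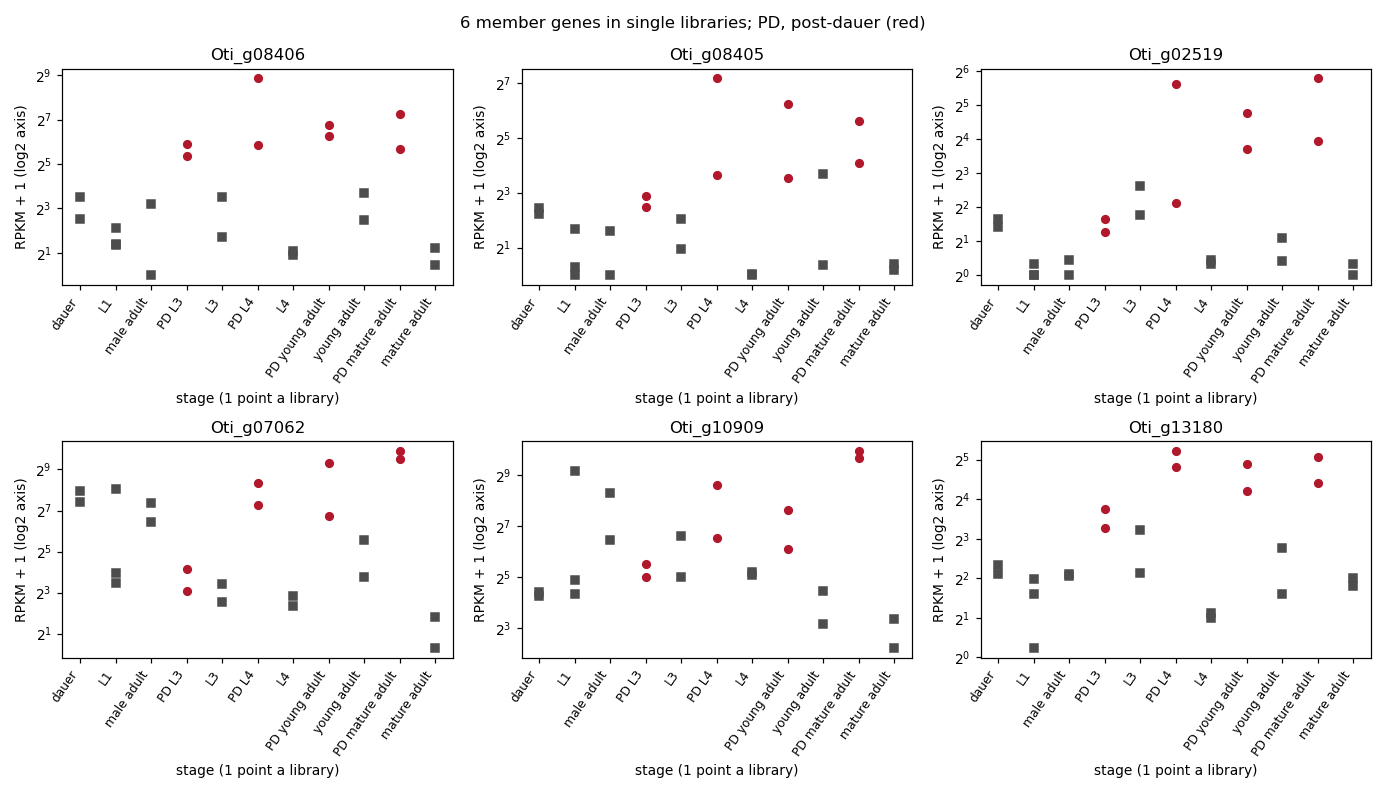
Level of 6 members in single libraries by stage, as RPKM + 1 on a log2 axis, with post-dauer libraries as red circles and other libraries as grey squares. Oti_g08406 lies at 462 and 57.2 RPKM in post-dauer L4, against 0.88 and 1.11 RPKM in L4, and Oti_g07062 at 7.58 and 16.9 RPKM in post-dauer L3, its lowest post-dauer stage.

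Genes of other stages were read in the same libraries, from lists of 150 genes chosen with each other set in place of post-dauer mature adults. These lists were chosen higher in their own set than in post-dauer mature adults, so their lower level there is fixed by the choice. The list of young and mature adults had medians of 12.1 and 16.9 RPKM in post-dauer mature adults, against 60.2 and 49.0 RPKM in mature adults. In mixed worms, which chose no list, it had 41.7 and 45.9 RPKM. In post-dauer young adults, which took no part in the choice, it had 7.72 and 21.9 RPKM, against 53.1 and 45.4 RPKM in young adults. The young adult libraries did take part, so their higher level is partly set by the choice.

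The list of embryos of 2 to 8 cells behaved alike, with 20.5 and 24.9 RPKM in post-dauer mature adults, against 70.2 and 65.8 RPKM in mature adults. The dauer list had 8.52 and 5.41 RPKM in post-dauer mature adults, against 0.67 and 1.66 RPKM in mature adults. The male list was low in post-dauer mature adults, at 0.81 and 1.48 RPKM, against 0.98 and 11.7 RPKM in mature adults. The choice of the early embryo and dauer lists set neither adult group against the other. The libraries labelled post-dauer mature adult carried the early embryo list at a lower level and the dauer list at a higher level than direct mature adults. Whether this has a part in the level of the members was not tested.

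**Figure D5:**
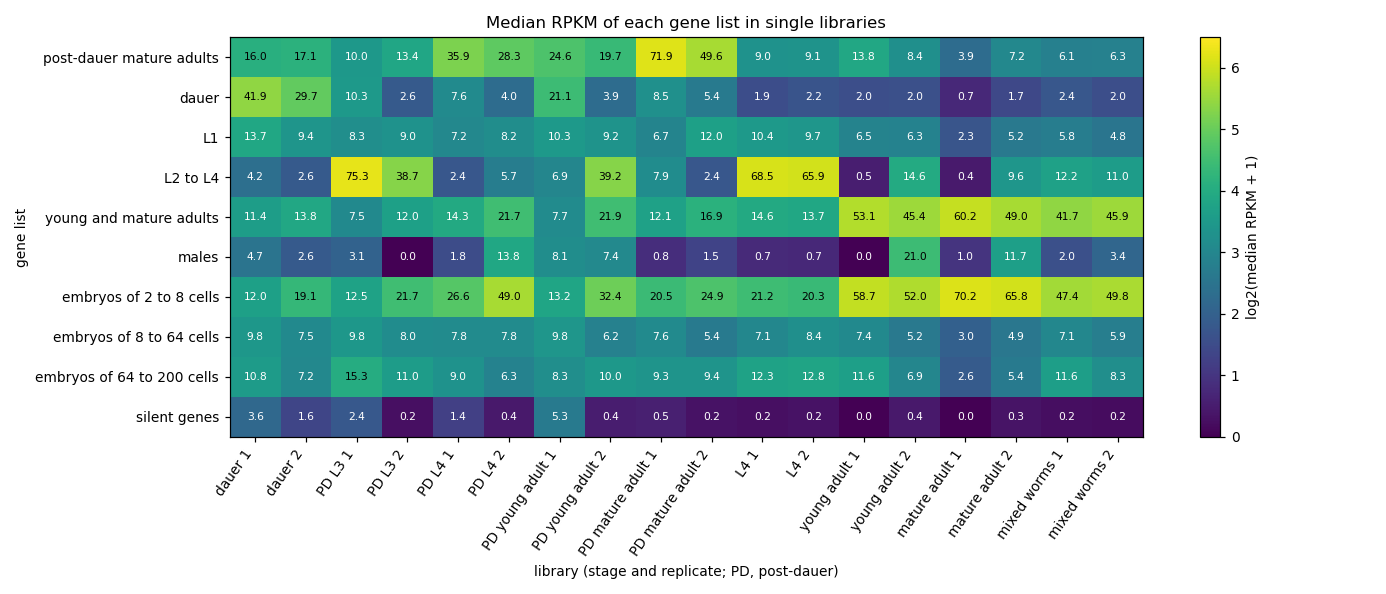
Median RPKM of the members (top row), of 8 lists of 150 genes chosen by stage and of the silent genes, in single libraries (columns); the colour gives log2(median RPKM + 1). The members reach 71.9 and 49.6 RPKM in post-dauer mature adults. The list of L2 to L4 larvae has 2.395 and 5.725 RPKM in post-dauer L4, against 68.5 and 65.9 RPKM in L4, which took part in its choice.

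Some members had neighbouring ID numbers. There were 8 pairs of consecutive IDs, and 31 members were within 5 ID numbers of another member. In the 8 other lists of the same size the counts were 2 to 18 pairs and 17 to 45 genes, so the members lie within that range. Oti_g08405 and Oti_g08406 were such a pair, with levels that correlated at r = 0.949 over the 48 libraries, and Oti_g07061 and Oti_g07062 another, at r = 0.986. Points of these correlations share libraries and stages. The sources used here do not state that ID order is genome order, and reads shared by near-identical neighbours cannot be told apart in these values.

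Replicates of the same stage differed in the members, in some stages by more than in all genes. The median size of the difference was 0.96 over the members and 0.66 over all genes in post-dauer L4, and 1.16 and 0.59 in young adults. In post-dauer young adults it was 1.31 over the members, near the 1.25 over all genes. In post-dauer mature adults it was 0.56 and 0.43. Of the 150, 90 differed by at least 1 on the log2(RPKM + 1) scale between the post-dauer young adult libraries and 74 between the post-dauer L4 libraries. Between the young adult libraries 83 did, and between the post-dauer mature adult libraries 39. These counts were not made over all genes, so they do not set the members apart. The median member was 1.18 higher in L1 replicate 2 than in L1 replicate 3, where the median of all genes was 0, and 122 members were higher there. Between young adult replicates 1 and 2 the median difference was 0.78 over the members and -0.10 over all genes. Members higher in post-dauer L4 replicate 1 than in replicate 2 tended to be less raised in L1 replicate 2 over replicate 3, with r = -0.455 across the members and 0.007 across all genes. The difference between the L1 libraries instead ran with that between the post-dauer young adult libraries, with r = 0.449 across the members and 0.218 across all genes. These are correlations across genes, which are not independent.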

How the data were processed

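Libraries were made from total RNA of whole worms and embryos after removal of ribosomal RNA, per the labels' protocols. RPKM values, as deposited by the authors, cover 14558 gene IDs in 48 columns. That unit rests on the values themselves, which are fractional and sum to between 371389 and 860569 in a library. The submitters' processing notes name the tools HTSeq 2.0.2, StringTie 2.2.0, STAR 2.7.10 and Bowtie2 2.4.2 without saying what each did; neither build nor annotation is given in the sources used here. The digits of the L2, L3 and L4 columns differ from those of the labels, so they only name a library.

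The values give no read counts. Steps in low values placed post-dauer mature adult replicate 1 at 1.04, post-dauer young adult replicate 2 at 1.06, post-dauer L4 replicate 2 at 1.13 and post-dauer L3 replicate 2 at 1.36 times the depth of post-dauer mature adult replicate 2, up to a small whole factor. For 4 libraries depth was not resolved: replicate 1 of post-dauer young adults, of post-dauer L4, of post-dauer L3 and of dauer. Over 1128 library pairs, at most 0.468% of values above 1 RPKM were identical.

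The test was limma 3.58.1 (R 4.3.3) on log2(RPKM + 1), fitted with the variance trend and robust moderation over the 25 libraries of 12 worm groups together. It covered the 14446 genes that reached 1 RPKM in at least 2 of them. Called means a Benjamini-Hochberg adjusted p under 0.05 over all these genes and a change of 1 or more in size on the log2 scale, which understates the change of low genes. The functions were tested on simulated data. Named genes are the members of largest margin overall and in each class of at least 10, those at ranks 149 to 152, and in each comparison the 2 called members of largest change in each direction or, with none called, the 2 of smallest p. The members, the lists and the comparisons were chosen with earlier results of these data known. The alternatives tried were a pseudocount of 0.1, quantile normalization, no filter, no trend, the replicate number as a block, only the 2 groups compared, subtraction of the silent genes' median, leaving out each library of the groups compared (for the choice of members, of post-dauer mature adults, mature adults, young adults and dauer), and a fit without 6 libraries that stand apart, each replicate 1 of its group (post-dauer young adult, post-dauer L4, post-dauer L3, dauer, young adult and L1). A group left with 1 library is assumed to vary like the others. A fit without post-dauer mature adults and the tests of differences between post-dauer effects were added after seeing the data.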

Additional observations from a re-analysis of the deposited data

How the results depend on the processing

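The direction of the members' median change held under all alternatives run in each of the 6 comparisons: 1.15 to 1.59 for post-dauer L4 over post-dauer L3, -0.60 to -0.02 in post-dauer young adults against post-dauer L4, 0.64 to 1.32 in post-dauer young adults against post-dauer L3, -0.51 to -0.18 in post-dauer L3 against L3, 1.54 to 1.74 in post-dauer L4 against L4 and 0.53 to 1.45 in post-dauer young adults against young adults. The count of called members stayed at 0 in post-dauer L3 against L3 under each alternative run and depended on the setting elsewhere. In post-dauer L4 against L4 the count of 14, all higher (9.33%, against 0.228% of all genes), was 9 after quantile normalization (6%, against 0.173%), 5 with a pseudocount of 0.1 (3.33%, against 0.0761%), 27 with only the 2 groups compared (18.2% of those tested, against 0.765%), 33 without the 6 libraries that stand apart (22%, against 3.2%) and 0 to 9 leaving out 1 library (up to 6%, against 0.118%). For post-dauer L4 over post-dauer L3 the count was 1 without the 6 libraries and 0 to 1 leaving out 1 library. Leaving out 1 library gave 0 to 5 in post-dauer young adults against post-dauer L4, 0 to 27 against post-dauer L3 and 0 to 44 against young adults. The upper ends came without post-dauer young adult replicate 2, which left only replicate 1 in that group. Many of all genes were called there too, at the shares given with each comparison above. The call of Oti_g08406 at L4 was also lost with a pseudocount of 0.1 (change 7.22, limma adjusted p 0.0542) and with only the 2 groups compared (0.0514), and that of Oti_g08405 with a pseudocount of 0.1 (change 8.48, limma adjusted p 0.0523), with only the 2 groups compared (0.0931) and after quantile normalization (0.0722). The causes were not tested.

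The replicate number as a block gave 0 called members for post-dauer L4 over post-dauer L3, in post-dauer young adults against post-dauer L4 or post-dauer L3, and against young adults, as without it. No paired analysis was possible for post-dauer L3 against L3 and post-dauer L4 against L4 because the L3 and L4 columns carry no replicate number of the labels. Deviations of same-numbered libraries correlated at 0.199 to 0.606 in these pairs of groups; the labels do not say what a shared number marks, so with 2 pairs each this is a hint from the data only. The 6 libraries that stand apart were taken as replicate 1 of their groups, so their shared number is no separate observation. By correlation, dauer replicate 1 among them was closest to dauer replicate 2, at 0.922.

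Of the 150 members, 92 were kept when the lower post-dauer mature adult library was set over the highest other library, and 85 to 148 leaving out 1 library of post-dauer mature adults, mature adults, young adults or dauer. Libraries of the other sets were not left out in turn. In post-dauer L3, 98 members reached 5 RPKM and 138 reached 1 RPKM in both libraries, and in mixed worms 80 and 118. The median of mixed worms was 6.02 RPKM after subtracting the level of silent genes. With 2 libraries a group and no counts, a call that is missing does not show that groups are alike.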
